A study of Mus musculus with 9 samples.

Results

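Innate intraepithelial lymphocytes that carry Ly49E without CD8aa were set against those that carry CD8aa without Ly49E. The members were chosen by array title and not by any measured value: 3 arrays titled Ly49E+CD8aa- and 3 titled Ly49E-CD8aa+, 6 of the 9 arrays of the series. Both populations were CD3- CD45+ cells from the small-intestinal epithelium of NOD-SCID mice, 8 to 10 weeks old, with no treatment named, and were sorted to high purity per the labels. What both share is thus the SCID background, which leaves the mice without mature T and B cells, and the absence of surface CD3. The labels number the 3 arrays of each population as biological replicates but do not give how many mice stand behind an array, or whether mice were pooled, so the errors measure the spread between these arrays. The remaining 3 arrays, of Ly49E+CD8aa+ cells, entered the estimate of the spread, and their levels are given for some genes and drawn in the plots by array.

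Intraepithelial lymphocytes sit between the epithelial cells of the gut and include cells that kill or secrete cytokines without a T cell receptor. Ly49E, encoded by Klra5, is an inhibitory lectin-like receptor known from fetal NK cells and gut lymphocytes. CD8aa, a homodimer of the CD8 alpha chain, is carried by many lymphocytes of the epithelium and binds a non-classical MHC molecule on enterocytes. NK cells and the related group 1 innate lymphoid cells read target cells through activating and inhibitory receptors, and respond to cytokines such as IL-15, IL-12 and IL-18.

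The values were log2 expression values from RMA, a method that corrects, normalizes and summarises the probes of a transcript, and a difference of 1 is a 2-fold change on the linear scale. Over the 19938 genes tested, the array medians ran from 5.89 to 6.01 and the 25th percentiles from 4.67 to 4.79, and no detection calls were used, so a low value is not proof of absence. Pearson correlations between arrays, across rows that are not independent, were 0.9853 to 0.9861 within Ly49E+CD8aa-, 0.9807 to 0.9841 within Ly49E-CD8aa+ and 0.9777 to 0.9815 between them. Below, a gene is called higher or lower when its limma adjusted p (Benjamini-Hochberg over all 19938 genes, 2-sided) was under 0.05. Differences are Ly49E+CD8aa- minus Ly49E-CD8aa+, with the standard error (SE) of the model, and n = 3 arrays per population throughout.

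The larger differences lay on the side of Ly49E+CD8aa-. Of the 19938, 269 (1.35%) passed on the higher side of Ly49E+CD8aa- and 160 (0.802%) on the lower side, 2.15% together, and the median difference over all genes was -0.024. Shares in brackets beside list counts below are the percent of measured members called, to be read against 2.15% over all genes. Of the higher genes 53 differed by at least 2 and 25 by at least 3, whereas 2 of the lower genes differed by at least 2 and 0 by at least 3. The median difference was 1.11 among the higher and -0.64 among the lower genes. The 3 arrays of one population lay entirely above or below those of the other in each of the 429 called genes, against 12.7% of all genes. That separation largely follows from the call itself and is no separate support for it. The count of lower genes fell to 94 and 82 without Ly49E+CD8aa- replicates 1 and 3, to 105 and 102 without Ly49E-CD8aa+ replicates 2 and 3, and to 78 with the 6 arrays alone, where 185 were higher. Pram1, an adaptor of myeloid cells, was among the largest at 10.65, 9.82 and 10.66 against 5.93, 5.85 and 5.77, a difference of 4.53 (SE 0.202, adjusted p = 3.62e-06). Of the 25 genes higher by at least 3, the Ly49E-CD8aa+ arrays were all under the array median in 16 and all under the 25th percentile in 6, so several of those differences start from a dim reading. The Ly49E+CD8aa+ mean lay nearer to Ly49E-CD8aa+ than to Ly49E+CD8aa- in at least 142 of the 154 genes higher by at least 1. This held for at least 21 of the 25 genes higher by at least 3, though not for Klra5, at 11.40. Among the 35 genes lower by at least 1 it held for at least 16. Most of these higher genes thus did not go with Ly49E across the 3 populations. With bulk RNA of sorted cells, fewer cells that express a gene and less RNA per cell cannot be told apart.

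**Figure D1:**
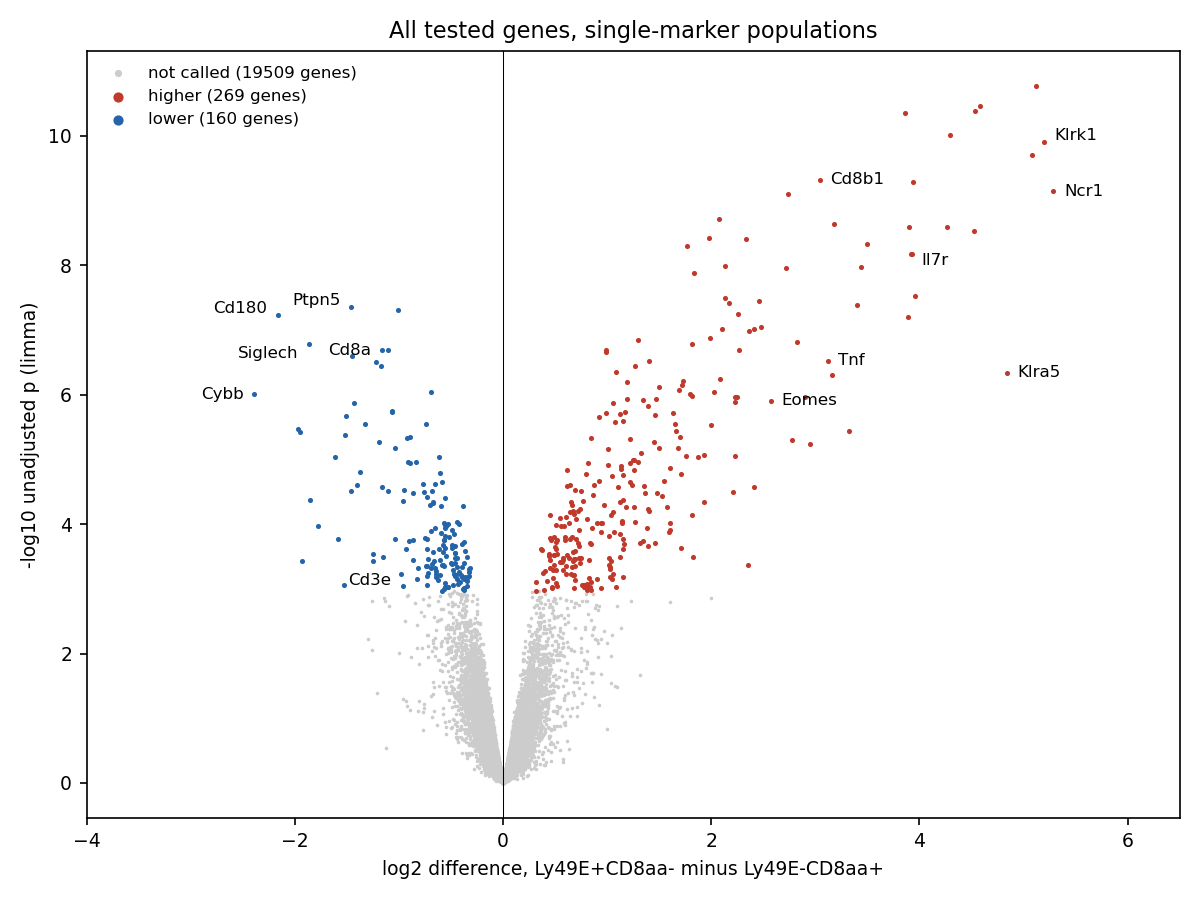
Each point is 1 of 19938 genes, placed by its log2 difference (Ly49E+CD8aa- minus Ly49E-CD8aa+, horizontal axis) and by -log10 of its unadjusted limma p (vertical axis), with red for the 269 called higher and blue for the 160 called lower. The red points reach beyond 5 (Ncr1, 5.29), the blue points no further than Cybb at -2.39.

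The transcripts behind the sort gates came first. Klra5 read 11.42, 11.50 and 11.38 in Ly49E+CD8aa- against 6.99, 5.48 and 7.31 in Ly49E-CD8aa+, a difference of 4.84 (SE 0.383, adjusted p = 0.000157). All 3 Ly49E+CD8aa- arrays were far above the others, and the Ly49E-CD8aa+ arrays spread over the range from 5.48 to 7.31. Cd8a, the CD8 alpha chain, read 11.50, 11.25 and 11.49 against 12.60, 12.64 and 12.51, a difference of -1.16 (SE 0.0841, adjusted p = 8.4e-05). The groups did not overlap, yet Cd8a stayed well above the array medians in cells sorted as CD8aa negative. Cd8b1, the CD8 beta chain of conventional cytotoxic T cells, ran the other way at 8.54, 8.11 and 8.38 against 5.40, 5.36 and 5.15, a difference of 3.04 (SE 0.111, adjusted p = 1.13e-06). In the Ly49E+CD8aa+ arrays Cd8b1 had a mean of 5.28. Ptprc, which encodes CD45, read 11.80, 11.83 and 11.83 against 11.84, 11.90 and 11.81, with overlapping arrays and a difference of -0.03 (adjusted p = 0.918).

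Transcripts of the CD3 complex were present although surface CD3 was gated out. Cd3e read 11.23, 10.51 and 10.35 in Ly49E+CD8aa- against 11.72, 11.57 and 11.73 in Ly49E-CD8aa+, a difference of -0.98 (SE 0.19, adjusted p = 0.0325). Within Ly49E+CD8aa-, replicate 1 stood above the other 2. The Cd3e call did not hold in the 6 arrays alone (adjusted p = 0.159) or when any array was left out but replicate 1 of Ly49E+CD8aa- (adjusted p from 0.0623 to 0.131). Cd3g (-0.22, adjusted p = 0.117), Cd3d (-0.28, adjusted p = 0.755) and Cd247, the zeta chain (0.20, adjusted p = 0.679), were not called. Of 14 CD3, coreceptor and related surface chains, 4 were higher and 2 lower (42.9%), with a median of 0.092 against -0.024 over all genes. The 2 lower were Cd3e, with the limit given above, and Cd8a, a transcript behind the sort gates, so the share includes a difference set by the sort. The 4 higher were Thy1, Cd8b1, Cd2 and Cd28. Thy1, a surface glycoprotein of T cells and many innate lymphoid cells, read 11.16, 11.12 and 10.68 against 7.44, 6.94 and 6.93, a difference of 3.89 (SE 0.245, adjusted p = 3.48e-05), and Cd2, an adhesion receptor, 7.97, 7.95 and 7.42 against 5.25, 5.40 and 5.46, a difference of 2.41 (SE 0.16, adjusted p = 4.99e-05). Cd4, Cd5, Cd6, Cd7 and Cd27 were not called, with differences from -0.08 to 0.46.

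NK cell receptors were among the largest differences. Of 24 measured receptors, 13 (54.2%) were higher in Ly49E+CD8aa- and 0 lower, by limma at adjusted p under 0.05, against 2.15% called over all genes, with a median of 1.12. The count stayed at 13 with each array left out in turn and was 11 in the 6 arrays alone. The list was drawn up with earlier results of these data known and is a description. Ncr1, the activating receptor NKp46, read 9.74, 9.60 and 9.74 in Ly49E+CD8aa- against 4.49, 4.60 and 4.13 in Ly49E-CD8aa+, a difference of 5.29 (SE 0.202, adjusted p = 1.42e-06). Klrk1, the activating receptor NKG2D that binds stress-induced ligands, read 9.82, 9.71 and 10.01 against 4.79, 4.69 and 4.45, a difference of 5.20 (SE 0.163, adjusted p = 4.09e-07). For both receptors the Ly49E-CD8aa+ arrays lay near or under the 25th percentile, and the Ly49E+CD8aa+ means were 4.26 and 4.38.

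Both chains of the CD94 and NKG2A heterodimer were higher. Klrc1, the inhibitory chain NKG2A, read 9.11, 9.16 and 9.26 against 4.19, 4.32 and 3.76, a difference of 5.08 (SE 0.168, adjusted p = 5.68e-07). Its partner Klrd1, which encodes CD94, read 11.12, 11.13 and 11.05 against 7.48, 8.59 and 7.75, a difference of 3.16 (SE 0.252, adjusted p = 0.000166). The Ly49E-CD8aa+ arrays of Klrd1 were above the array medians, with replicate 2 the highest, and those of Klrc1 were under the 25th percentile. The other NKG2 chains Klrc3 (2.74, adjusted p = 1.42e-06) and Klrc2 (1.66, adjusted p = 0.000732) were also higher, and are near-identical in part to Klrc1, so their readings are open to cross-hybridisation. Klre1, a lectin-like receptor that pairs with Klri1 or Klri2, read 8.88, 8.85 and 8.77 against 4.35, 4.84 and 4.42, a difference of 4.29 (SE 0.131, adjusted p = 3.9e-07). Of those partners Klri2 was higher (1.81, SE 0.266, adjusted p = 0.00734) and Klri1 at 0.88 was not called (adjusted p = 0.124).

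Among the Nkrp1 receptors, lectin-like receptors that recognise Clr proteins, the members parted. Klrb1b, an inhibitory member, read 11.15, 10.98 and 11.15 against 6.27, 6.44 and 6.82, a difference of 4.59 (SE 0.125, adjusted p = 2.24e-07), with a mean of 7.52 in Ly49E+CD8aa+. Klrb1f was higher by 2.23 (SE 0.195, adjusted p = 0.000301). Klrb1c, the NK1.1 gene, read 5.19, 5.0 and 5.41 against 4.62, 4.78 and 4.90 and was not called (0.44, adjusted p = 0.119), nor was Klrb1a (0.16, adjusted p = 0.332). Among receptors for nectins, Cd226 (1.84, SE 0.0971, adjusted p = 1.02e-05) and Crtam (1.77, SE 0.0836, adjusted p = 4.97e-06) were higher, whereas Tigit (-0.31, adjusted p = 0.218) and Cd96 (-0.19, adjusted p = 0.331) were not called. Klrg1, an inhibitory receptor for cadherins, was higher by 1.36 (SE 0.18, adjusted p = 0.00394) and Cd160 by 0.86 (SE 0.133, adjusted p = 0.0102). The Cd160 call did not hold in the 6 arrays alone (adjusted p = 0.067). The Klri2 call did not hold in the 6 arrays alone (adjusted p = 0.0611). Fcgr3, the low-affinity IgG receptor, and Cd244a read -0.19 and -0.16, neither called.

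**Figure D2:**
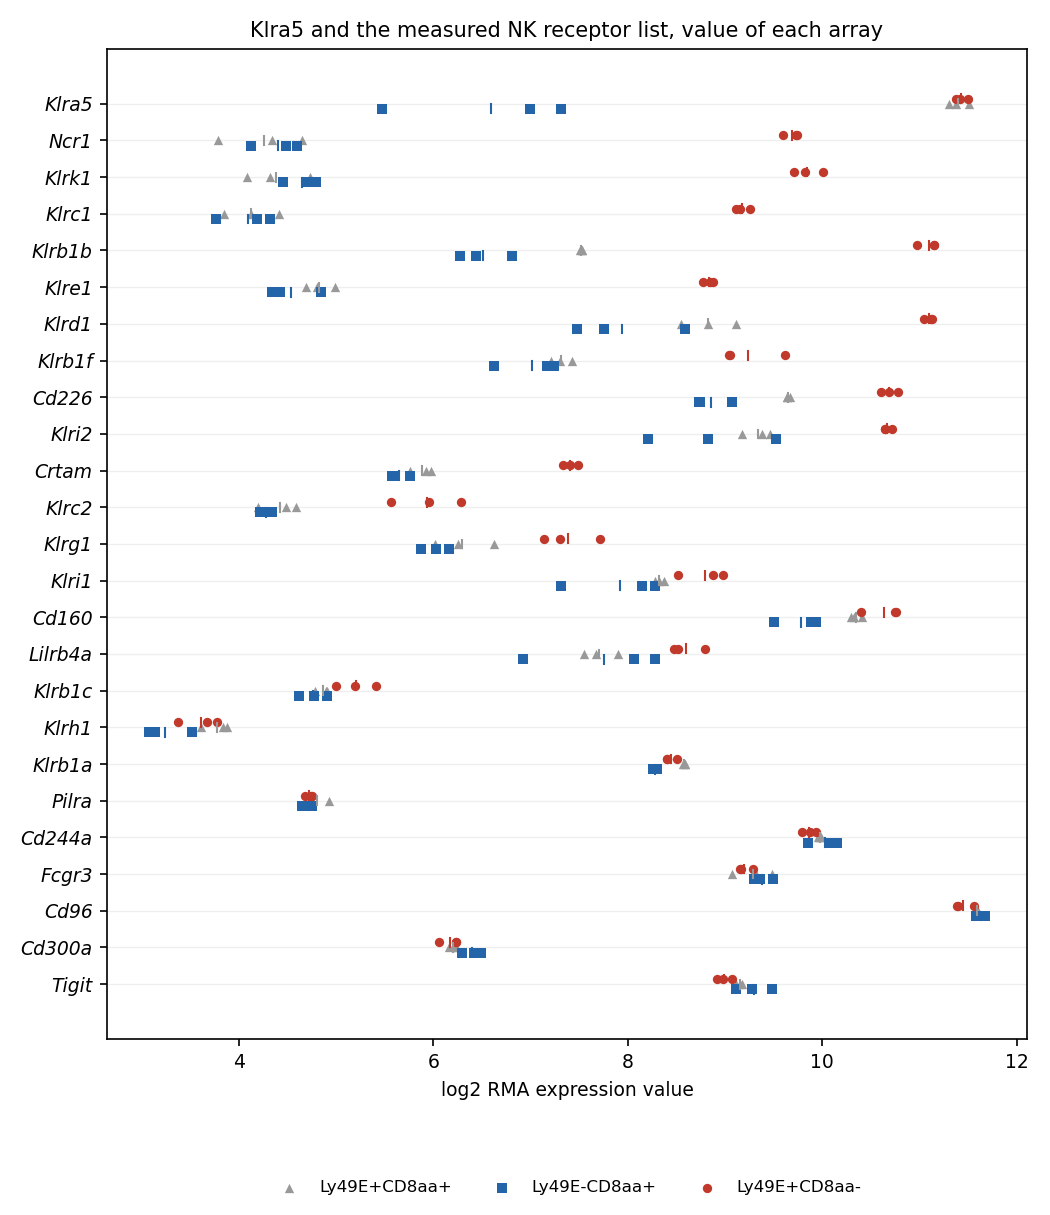
Log2 value of every array (horizontal axis) for Klra5 and the 24 measured NK receptors, ordered by difference, with red circles for Ly49E+CD8aa-, blue squares for Ly49E-CD8aa+, grey triangles for Ly49E+CD8aa+ and short vertical bars for the means of 3 arrays. From Ncr1 down to Klrg1 the red circles lie to the right of the blue squares, and from Klrb1a down the differences of the means run over -0.31 to 0.16.

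Ly49 receptors beside Klra5 were read at low levels, and as a family of near-identical genes they are open to cross-hybridisation. Of 5 measured members 3 were higher and 1 lower (80%). Klra8 read 5.34, 5.87 and 5.44 against 3.74, 4.22 and 3.74 (1.65, SE 0.162, adjusted p = 0.000602), Klra3 5.37, 5.42 and 5.36 against 4.21, 3.28 and 3.84 (1.61, SE 0.244, adjusted p = 0.00908) and Klra6 4.77, 4.85 and 4.93 against 3.58, 3.65 and 3.76 (1.19, SE 0.0978, adjusted p = 0.000205). The Ly49E-CD8aa+ arrays of these 3 genes were under the 25th percentile. Klra17, known from plasmacytoid dendritic cells, went down instead, 5.26, 5.60 and 5.59 against 6.62, 6.53 and 6.11 (-0.93, SE 0.16, adjusted p = 0.0174). The Klra17 call did not hold in the 6 arrays alone (adjusted p = 0.062) or when any of replicates 1 and 3 of Ly49E+CD8aa- and replicates 1 and 2 of Ly49E-CD8aa+ was left out (adjusted p from 0.0515 to 0.0787).

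Some of the chains that carry the signals of these receptors were called. Hcst, the DAP10 adaptor of NKG2D, read 10.74, 10.99 and 10.79 against 9.99, 9.92 and 10.18, a difference of 0.81 (SE 0.0944, adjusted p = 0.00177). Tyrobp, the DAP12 adaptor, and Fcer1g, the gamma chain that NKp46 uses, were not called, at -0.13 and -0.19 (adjusted p = 0.49 and 0.186). Sh2d1a, the SLAM-associated adaptor SAP, was the largest difference of the list at 6.95, 7.57 and 6.10 against 4.20, 3.69 and 3.89, a difference of 2.95 (SE 0.314, adjusted p = 0.00103), and Ly49E+CD8aa- replicate 3 was the lowest of its group. Of 26 adaptors and proximal kinases or scaffolds, 3 were higher and 1 lower (15.4%, against 2.15% over all genes), with a median of -0.056. The scaffold Lat was higher by 0.60 (SE 0.0965, adjusted p = 0.013). The Lat call did not hold when any of replicates 1 and 2 of Ly49E+CD8aa- and replicate 3 of Ly49E-CD8aa+ was left out (adjusted p from 0.053 to 0.0605). Ptpn6, the phosphatase SHP-1 that inhibitory receptors recruit, was lower at -0.55 (SE 0.115, adjusted p = 0.0453). The Ptpn6 call did not hold in the 6 arrays alone (adjusted p = 0.0757) or when any array was left out but replicate 2 of Ly49E-CD8aa+ and replicate 1 of Ly49E+CD8aa+ (adjusted p from 0.0515 to 0.168). Zap70 (0.30), Syk (-0.48), Fyn (-0.18) and Lcp2 (-0.06) were not called (adjusted p = 0.26, 0.0508, 0.437 and 0.809).

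Costimulatory receptors shifted in a few members. Of 16 measured, 3 were higher and 1 lower (25%), with a median of 0.02. Icos, the inducible costimulator, read 9.15, 8.93 and 9.17 in Ly49E+CD8aa- against 5.32, 5.14 and 5.20 in Ly49E-CD8aa+, a difference of 3.86 (SE 0.108, adjusted p = 2.24e-07), and its relatives of the CD28 family Cd28 (7.34, 6.91 and 6.88 against 4.86, 4.83 and 4.35, a difference of 2.36, SE 0.157, adjusted p = 5.14e-05) and Ctla4 (6.87, 6.87 and 6.15 against 5.32, 4.76 and 5.11, a difference of 1.57, SE 0.221, adjusted p = 0.00578) were higher too. Tnfrsf9, the costimulator 4-1BB, was lower at -0.65 (SE 0.124, adjusted p = 0.0302). The Tnfrsf9 call did not hold in the 6 arrays alone (adjusted p = 0.0751) or when any array was left out but replicate 2 of Ly49E+CD8aa- and replicates 1 and 3 of Ly49E+CD8aa+ (adjusted p from 0.0579 to 0.118). Without replicate 2 of Ly49E+CD8aa- 2 members were lower. Pdcd1 (0.41), Lag3 (-0.36), Btla (-0.19) and Havcr2 (-0.06) were not called. In the SLAM family, Cd84 read 8.07, 8.02 and 8.26 against 5.62, 5.79 and 5.94, a difference of 2.34 (SE 0.108, adjusted p = 4.29e-06), and was called with Cd2 and Ly9, 3 of 9 members, while Slamf1, Slamf6, Slamf7, Cd48 and Cd244a read from -0.22 to -0.01. Ly9 was higher by 0.39 (SE 0.0746, adjusted p = 0.0314). The Ly9 call did not hold in the 6 arrays alone (adjusted p = 0.078) or when any array was left out but replicate 1 of Ly49E-CD8aa+ and replicate 3 of Ly49E+CD8aa+ (adjusted p from 0.0505 to 0.12).

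The chains Il7r and Il2ra and both chains of the IL-18 receptor were higher in Ly49E+CD8aa-. In the common gamma chain family Il7r, the IL-7 receptor alpha chain, read 10.37, 10.12 and 10.61 in Ly49E+CD8aa- against 6.82, 6.25 and 6.27 in Ly49E-CD8aa+, a difference of 3.92 (SE 0.192, adjusted p = 6.16e-06), and 4.92 on average in Ly49E+CD8aa+. Il2ra, the inducible alpha chain CD25, read 8.32, 8.27 and 8.52 against 4.44, 5.03 and 5.15, a difference of 3.50 (SE 0.165, adjusted p = 4.97e-06). Il2rb, the chain shared by the IL-2 and IL-15 receptors, was lower at 12.18, 12.30 and 12.12 against 12.54, 12.63 and 12.52, a difference of -0.36 (SE 0.0717, adjusted p = 0.0344). The Il2rb call did not hold in the 6 arrays alone (adjusted p = 0.0904) or when any array was left out but replicate 2 of Ly49E+CD8aa- (adjusted p from 0.0519 to 0.127). Il15ra (-0.22, adjusted p = 0.85), Il4ra (0.27, adjusted p = 0.603) and Il21r (-0.40, adjusted p = 0.0979) were not called, which leaves 2 higher and 1 lower of 8.

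The IL-18 receptor activates NK cells and type 1 lymphocytes. Il18r1, the binding chain, read 9.27, 9.01 and 9.49 against 4.14, 4.05 and 4.22, a difference of 5.12 (SE 0.129, adjusted p = 2.24e-07), and Il18rap, the accessory chain, 7.41, 7.69 and 8.27 against 5.05, 5.47 and 4.51, a difference of 2.78 (SE 0.292, adjusted p = 0.000932). Of the chains that form the IL-12 and IL-23 receptors, Il23r read 8.61, 7.92 and 8.95 against 4.54, 4.42 and 4.65, a difference of 3.96 (SE 0.229, adjusted p = 2.2e-05), with Ly49E+CD8aa- replicate 2 the lowest of its group. The partner chain Il12rb1 (0.14, adjusted p = 0.752) and Il12rb2 (-0.24, adjusted p = 0.216) were not called. Ifngr1, the interferon gamma receptor, was higher by 0.81 (SE 0.12, adjusted p = 0.00822) and Ifngr2 was not called (-0.06, adjusted p = 0.91). The Ifngr1 call did not hold in the 6 arrays alone (adjusted p = 0.0628). The TGF-beta receptors Tgfbr1, Tgfbr2 and Tgfbr3 read -0.33, 0.13 and -0.36, none called, and 4 of the 20 receptors of the IL-1, IL-12, TGF-beta and interferon families were called, all higher, with 1 lower as well without replicate 1 of Ly49E+CD8aa+. Of 17 JAK, STAT and SOCS genes 1 was called (5.88%, near the 2.15% over all genes), the feedback inhibitor Cish (0.46, SE 0.0824, adjusted p = 0.0226). The Cish call did not hold in the 6 arrays alone (adjusted p = 0.066) or when any of replicates 1 and 2 of Ly49E+CD8aa- and replicates 2 and 3 of Ly49E-CD8aa+ was left out (adjusted p from 0.0789 to 0.0943). Stat4 (0.07), Stat3 (-0.13), Stat5a (-0.02) and Jak1 (-0.03) were not called.

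Chemokine receptors were higher where called. Of 16 measured, 4 were higher and 0 lower by limma (25%), with a median of 0.21. Ccr9, the small-intestinal homing receptor, read 10.05, 9.64 and 9.88 against 8.18, 7.55 and 7.84, a difference of 2.0 (SE 0.197, adjusted p = 0.000607), and Cxcr4, which binds CXCL12, 9.15, 10.01 and 9.23 against 7.69, 7.45 and 7.47, a difference of 1.93 (SE 0.265, adjusted p = 0.00512). The Ly49E+CD8aa- replicate 2 array was the highest of its group for Cxcr4 and the lowest for Ccr9. Ccr2 (1.02, SE 0.183, adjusted p = 0.022) and Cxcr3 (0.69, SE 0.124, adjusted p = 0.0224) were called with smaller differences. The Ccr2 call did not hold when any of replicates 1, 2 and 3 of Ly49E+CD8aa- and replicates 2 and 3 of Ly49E-CD8aa+ was left out (adjusted p from 0.0712 to 0.0962). The Cxcr3 call did not hold in the 6 arrays alone (adjusted p = 0.0606) or when any of replicates 1 and 2 of Ly49E+CD8aa- and replicates 1 and 2 of Ly49E-CD8aa+ was left out (adjusted p from 0.0931 to 0.0962). Without Ly49E+CD8aa- replicate 1 or 2 or Ly49E-CD8aa+ replicate 2, 2 receptors were called. Cxcr6, a receptor of tissue-resident lymphocytes, read 0.40 (adjusted p = 0.0687) and was not called.

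Integrins and adhesion genes moved in both directions, 7 higher and 2 lower of 28 (32.1%). Itgal, the alpha chain of LFA-1, read 8.37, 8.18 and 8.09 against 5.94, 5.93 and 5.33, a difference of 2.48 (SE 0.163, adjusted p = 4.83e-05), and Cd44, the hyaluronan receptor, 7.79, 7.44 and 8.05 against 5.63, 5.59 and 5.27, a difference of 2.26 (SE 0.163, adjusted p = 8.4e-05). Icam2 (1.39, SE 0.126, adjusted p = 0.000366), Itgb3 (1.16, SE 0.112, adjusted p = 0.000561) and Itga5 (1.13, SE 0.132, adjusted p = 0.00191) were higher as well. Itgae, the alpha chain of the integrin that binds E-cadherin on enterocytes, was lower at 11.88, 11.97 and 11.88 against 12.30, 12.19 and 12.27, a difference of -0.34 (SE 0.0611, adjusted p = 0.0213). The Itgae call did not hold in the 6 arrays alone (adjusted p = 0.0651) or when any of replicates 1 and 3 of Ly49E+CD8aa- and replicates 1 and 3 of Ly49E-CD8aa+ was left out (adjusted p from 0.0652 to 0.0843). Itgb2, the beta chain that pairs with Itgal, was lower too at -0.39 (SE 0.0655, adjusted p = 0.0151), so the chains of LFA-1 went in opposite directions. The Itgb2 call did not hold when any of replicates 1, 2 and 3 of Ly49E+CD8aa- and replicate 3 of Ly49E-CD8aa+ was left out (adjusted p from 0.0537 to 0.0611). The 2 lower calls became 0 without Ly49E+CD8aa- replicates 1 or 3 or Ly49E-CD8aa+ replicate 3, and 1 without Ly49E-CD8aa+ replicate 1. Itgb7 (0.14), Itga1 (-0.32) and Cd69 (0.24) were not called.

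**Figure D3:**
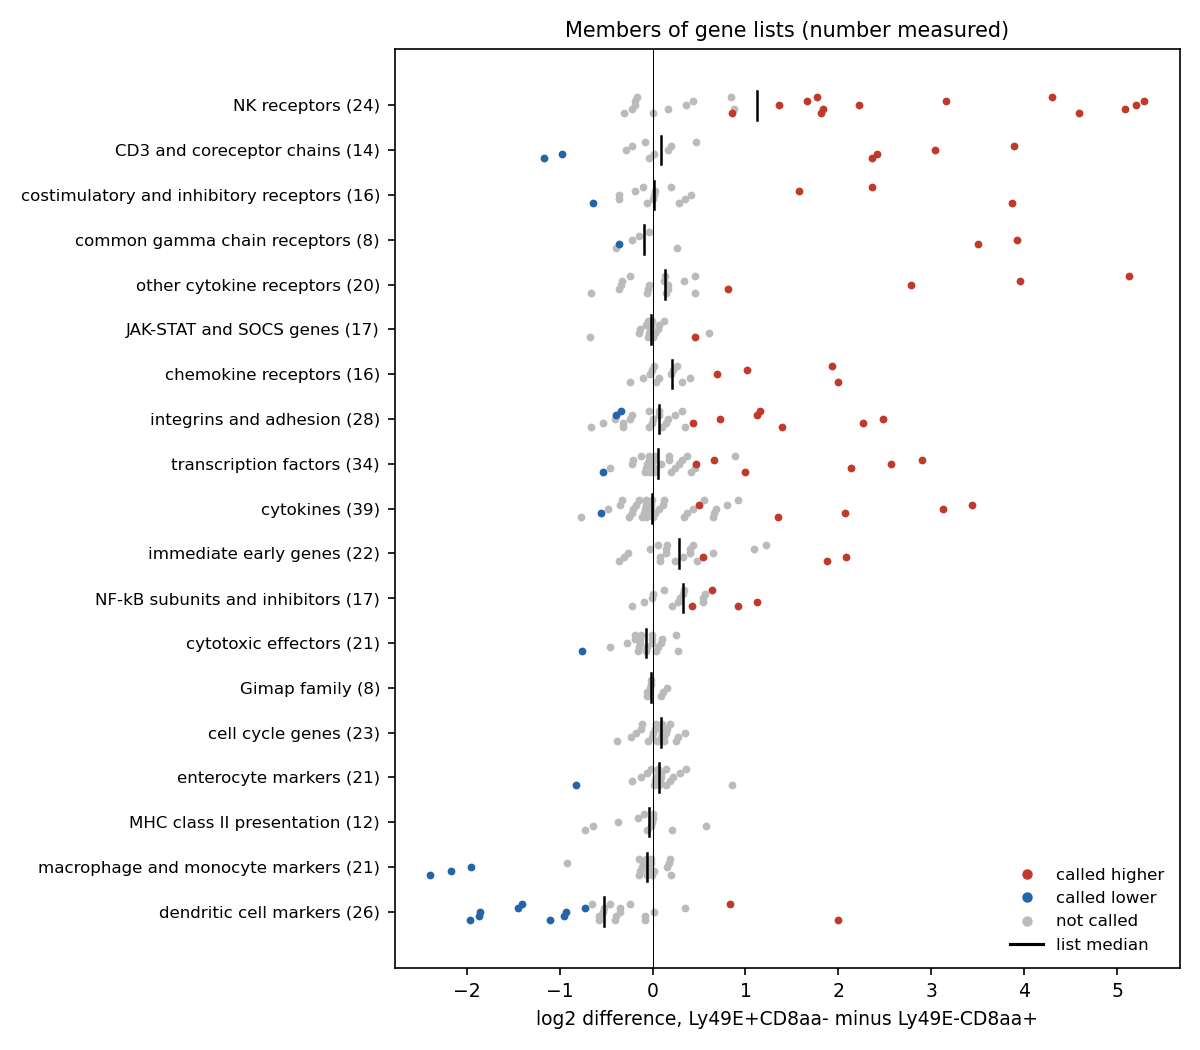
Each point is 1 measured gene of a list (number measured in brackets), placed by its log2 difference (Ly49E+CD8aa- minus Ly49E-CD8aa+), red where called higher, blue where called lower, grey where not called, with a black bar at the list median. Of the lists drawn, NK receptors have the highest median (1.12), dendritic cell markers the lowest (-0.524), and the Gimap genes lie between -0.06 and 0.15.

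Among transcription factors 6 of 34 were higher and 1 lower (20.6%), with a median of 0.064. Eomes, the T-box factor of conventional NK cells, read 6.57, 7.48 and 7.40 in Ly49E+CD8aa- against 4.66, 4.35 and 4.73 in Ly49E-CD8aa+, a difference of 2.57 (SE 0.228, adjusted p = 0.000319), with Ly49E+CD8aa- replicate 1 the lowest of its group. Tbx21, which encodes T-bet, the T-box factor of type 1 lymphocytes, read 8.84, 8.99 and 9.06 against 8.69, 8.76 and 8.82 and was not called (0.20, adjusted p = 0.359). Satb1, a chromatin organiser of early lymphocytes, read 8.07, 8.80 and 8.98 against 6.08, 5.73 and 5.34, a difference of 2.90 (SE 0.254, adjusted p = 0.000301), and Rora, a nuclear receptor of innate lymphoid cells, 8.88, 8.74 and 8.74 against 6.45, 6.68 and 6.83, a difference of 2.13 (SE 0.124, adjusted p = 2.29e-05). Maf was higher by 0.99 (SE 0.0714, adjusted p = 8.4e-05). Prdm1, which encodes Blimp-1, was the 1 lower factor, 9.34, 9.18 and 9.14 against 9.77, 9.68 and 9.79, a difference of -0.53 (SE 0.0806, adjusted p = 0.00935). Gata3 read 8.96, 9.03 and 8.84 against 8.28, 8.54 and 8.59, a difference of 0.47 (SE 0.0985, adjusted p = 0.0456). The Gata3 call did not hold in the 6 arrays alone (adjusted p = 0.134) or with any of the 9 arrays left out (adjusted p from 0.0612 to 0.17). Lef1 was higher by 0.66 (SE 0.124, adjusted p = 0.0271). The Lef1 call did not hold in the 6 arrays alone (adjusted p = 0.0742) or when any of replicates 1 and 3 of Ly49E+CD8aa-, replicates 2 and 3 of Ly49E-CD8aa+ and replicate 1 of Ly49E+CD8aa+ was left out (adjusted p from 0.0531 to 0.109). Zbtb16 (-0.02), Runx3 (-0.02), Id2 (0.45), Tox (-0.21), Ahr (0.37) and Bcl11b (-0.04) were not called.

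Some genes known from innate lymphoid subsets were higher. The lists share members, with Tmem176a, Tmem176b and Ltb in both the ILC3 and the ILC1 list. Of 11 ILC3 genes 7 were higher, with a median of 1.29. They included the membrane proteins Tmem176b (9.97, 9.83 and 10.06 against 5.35, 5.47 and 5.43, a difference of 4.53, SE 0.126, adjusted p = 2.24e-07) and Tmem176a (9.95, 9.32 and 9.66 against 5.61, 5.30 and 5.22, a difference of 4.26, SE 0.188, adjusted p = 3.46e-06), Ffar2, which senses short-chain fatty acids (8.31, 8.10 and 8.32 against 5.84, 5.50 and 5.26, a difference of 2.71, SE 0.14, adjusted p = 8.74e-06), and Kit (9.44, 9.35 and 9.57 against 8.02, 8.28 and 8.19, a difference of 1.29, SE 0.0895, adjusted p = 6.7e-05). Il17a (-0.15, adjusted p = 0.544) and Ccr6 (0.27, adjusted p = 0.298) were not called, and Il22 was not analysed here. Of 8 ILC2 genes 3 were higher, Icos, Klrg1 and Gata3, and 1 lower, Il13, with a median of -0.013. Il13 read 7.16, 6.93 and 7.02 against 7.73, 7.50 and 7.55, a difference of -0.56 (SE 0.0853, adjusted p = 0.00943). The Il13 call did not hold in the 6 arrays alone (adjusted p = 0.0523). The Gata3 call has the limit given above. Of 15 genes of conventional NK cells 4 were higher and 1 lower (33.3%), with a median of 0.091. Of these, Itgam (-0.66), Itga2 (-0.32), Zeb2 (0.09) and S1pr5 (-0.03) were not called. Of 20 ILC1 and tissue residency genes 6 were higher and 1, Itgae, lower (35%), with a median of 0.267. That lower count was 0 without replicates 1 or 3 of Ly49E+CD8aa- or of Ly49E-CD8aa+ and 2 without replicate 2 of Ly49E+CD8aa-, and it was 0 in the 6 arrays alone, with the replicate block and with centring on array medians. The summed linear level of the ILC3 markers Il23r, Il17a, Kit and Ltb was 1814 to 2197 in Ly49E+CD8aa-, 536 to 591 in Ly49E-CD8aa+ and 597 to 645 in Ly49E+CD8aa+. Whether a share of ILC3 cells takes part in the difference was not tested.

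Of 39 cytokine genes 5 were higher and 1, Il13, lower (15.4%), with a median of -0.009. Csf2, which encodes GM-CSF, read 9.18, 8.78 and 9.06 in Ly49E+CD8aa- against 5.73, 5.73 and 5.23 in Ly49E-CD8aa+, a difference of 3.44 (SE 0.177, adjusted p = 8.7e-06). Of 11 TNF family ligands 3 were higher. Tnf read 9.39, 8.78 and 9.45 against 6.52, 6.05 and 5.69, a difference of 3.12 (SE 0.235, adjusted p = 0.000112), Ltb, the lymphotoxin beta chain, 9.64, 9.78 and 9.81 against 7.69, 7.75 and 7.57, a difference of 2.08 (SE 0.0885, adjusted p = 3.24e-06), and Tnfsf14, the ligand LIGHT, 7.24, 7.71 and 7.69 against 6.28, 6.06 and 6.24, a difference of 1.35 (SE 0.174, adjusted p = 0.00339). Xcl1, a chemokine that attracts cross-presenting dendritic cells, read 12.32, 12.29 and 12.29 against 11.63, 11.97 and 11.80, a difference of 0.50 (SE 0.0852, adjusted p = 0.0166). The Xcl1 call did not hold in the 6 arrays alone (adjusted p = 0.0766) or when any of replicates 1, 2 and 3 of Ly49E+CD8aa- and replicate 3 of Ly49E-CD8aa+ was left out (adjusted p from 0.0598 to 0.0673). Without replicate 3 of Ly49E+CD8aa+, replicate 2 of Ly49E+CD8aa- or replicate 3 of Ly49E-CD8aa+, 2 cytokines were lower. Ifng (0.92, adjusted p = 0.238), Fasl (-0.07, adjusted p = 0.783), Ccl3 (-0.25), Ccl4 (-0.35) and Ccl5 (-0.05) were not called.

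Perforin was lower in Ly49E+CD8aa-. Prf1, the pore-forming protein, read 8.80, 9.01 and 8.94 in Ly49E+CD8aa- against 9.82, 9.53 and 9.68 in Ly49E-CD8aa+, a difference of -0.76 (SE 0.1, adjusted p = 0.00393), lower in Ly49E+CD8aa- and with a mean of 9.50 in Ly49E+CD8aa+. Of 21 cytotoxic effectors it was the 1 called (4.76%, against 2.15% over all genes), a share too near that background to read as a result about the list, and without Ly49E+CD8aa- replicate 2 the count of lower effectors was 2. The 9 granzymes, which are open to cross-hybridisation, gave 0 calls and a median of -0.067, with Gzma at -0.07 (adjusted p = 0.807) and Gzmb at -0.19 (adjusted p = 0.255). Nkg7 (-0.19), Srgn (-0.13) and Unc13d (-0.14) were not called.

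Some genes of the immediate early response were higher in Ly49E+CD8aa-. Of 22 immediate early genes 3 were higher and 0 lower by limma (13.6%), with a median of 0.286 against -0.024 over all genes. Nr4a1, an orphan nuclear receptor induced by antigen receptor signals, read 9.85, 9.43 and 9.64 against 7.54, 7.23 and 7.90, a difference of 2.08 (SE 0.169, adjusted p = 0.000193), and Gadd45b 9.67, 9.14 and 8.97 against 7.21, 7.33 and 7.61, a difference of 1.88 (SE 0.212, adjusted p = 0.00152). Jun was higher by 0.55 (SE 0.0808, adjusted p = 0.00796). Fos (1.09, adjusted p = 0.0714) and Fosb (1.23, adjusted p = 0.0648) missed the threshold, and Egr1 (0.08), Egr2 (0.08) and Nr4a2 (-0.27) were not called.

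Of 17 NF-kB subunits and regulators 4 were higher and 0 lower (23.5%), with a median of 0.328. Nfkbia, which encodes the inhibitor IkB alpha, read 9.88, 9.68 and 9.51 against 8.78, 8.43 and 8.48, a difference of 1.12 (SE 0.179, adjusted p = 0.012), and Nfkbid 7.44, 7.03 and 6.98 against 6.21, 6.32 and 6.13, a difference of 0.92 (SE 0.116, adjusted p = 0.00303). Traf1, an adaptor of TNF receptors, was higher by 0.64 (SE 0.0817, adjusted p = 0.00334) and Nfkb2, the p100 subunit, by 0.42 (SE 0.0851, adjusted p = 0.0384). The subunits Rel (-0.10), Rela (0.01) and Relb (0.29) were not called, nor was the inhibitor Tnfaip3 (0.57, adjusted p = 0.161). The Nfkbia call did not hold when any of replicate 1 of Ly49E+CD8aa- and replicates 2 and 3 of Ly49E-CD8aa+ was left out (adjusted p from 0.0555 to 0.0587). The Nfkb2 call did not hold in the 6 arrays alone (adjusted p = 0.0874) or when any array was left out but replicate 3 of Ly49E+CD8aa- and replicate 1 of Ly49E+CD8aa+ (adjusted p from 0.0619 to 0.143). In count, 2 of 17 were called without Ly49E+CD8aa- replicate 1 or Ly49E-CD8aa+ replicates 2 or 3.

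Promoters of called genes of this pathway and its neighbours are shown because NF-kB factors bind kappaB letters in such DNA. The 250 bases before the annotated start were searched on both strands for the kappaB letters GGGNNTTTCC, the AP-1 letters TGANTCA, the cyclic AMP response letters TGACGTCA and the T-box letters AGGTGTGA, and each sequence below holds 1 match. Sequences are from RefSeq (GRCm38.p6), 5′ to 3′, with the match in capitals.
Nfkbia, chr12:55492648-55492897, - strand: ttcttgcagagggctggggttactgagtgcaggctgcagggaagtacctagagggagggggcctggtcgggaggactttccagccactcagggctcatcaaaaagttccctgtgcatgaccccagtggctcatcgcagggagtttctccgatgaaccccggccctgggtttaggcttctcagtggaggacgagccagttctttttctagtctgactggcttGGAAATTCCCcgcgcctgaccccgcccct
Nfkb2, chr19:46304487-46304736, + strand: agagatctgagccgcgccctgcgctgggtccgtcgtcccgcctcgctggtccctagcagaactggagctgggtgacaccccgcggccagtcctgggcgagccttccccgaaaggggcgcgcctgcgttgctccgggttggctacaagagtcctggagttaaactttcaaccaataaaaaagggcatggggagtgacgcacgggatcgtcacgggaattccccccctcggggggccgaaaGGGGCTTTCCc
Ltb, chr17:35194257-35194506, + strand: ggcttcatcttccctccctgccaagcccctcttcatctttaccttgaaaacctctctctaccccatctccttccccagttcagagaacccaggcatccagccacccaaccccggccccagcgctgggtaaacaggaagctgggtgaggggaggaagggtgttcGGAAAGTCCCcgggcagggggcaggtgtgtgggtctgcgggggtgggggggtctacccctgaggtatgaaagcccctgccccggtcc
Dusp5, chr19:53528895-53529144, + strand: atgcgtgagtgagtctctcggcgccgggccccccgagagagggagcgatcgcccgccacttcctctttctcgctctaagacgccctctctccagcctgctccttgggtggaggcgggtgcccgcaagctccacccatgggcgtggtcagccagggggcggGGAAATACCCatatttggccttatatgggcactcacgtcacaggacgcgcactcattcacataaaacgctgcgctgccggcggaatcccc
The kappaB letters begin 29 bases before the start in Nfkbia, 11 at the first of the annotated Nfkb2 starts, 87 in Ltb and 90 in Dusp5. At other annotated starts Nfkb2 holds the AP-1 letters and, again, the kappaB letters. Dusp1 holds the cyclic AMP response letters, as does Nfkbid at only 1 of its annotated starts, and Tnfsf14 holds the AP-1 letters. Tnf, Traf1, Gadd45b, Nr4a1, Csf2, Jun, Il2ra and Xcl1 held none of these letters in this window, which says nothing about the factors. Of 15614 tested genes with a promoter in the table, 1.61% hold the kappaB letters, 7.12% the AP-1 letters, 2.33% the cyclic AMP response letters and 1.12% the T-box letters. Of the 269 higher genes 197 had a promoter there, under 80%, so a comparison of these shares between called genes and all genes is void.

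Of 17 dual-specificity and tyrosine phosphatases, which switch off kinase signals, 4 were higher and 1 lower (29.4%) with a median of 0.011. Dusp4 read 6.81, 6.44 and 7.03 against 5.55, 5.24 and 5.16, a difference of 1.45 (SE 0.153, adjusted p = 0.000979), and Ptpn7 8.10, 8.24 and 8.18 against 6.95, 7.12 and 7.20, a difference of 1.08 (SE 0.0856, adjusted p = 0.000156). Dusp1 (0.82, SE 0.164, adjusted p = 0.0359) and Dusp5 (0.45, SE 0.0845, adjusted p = 0.0271) were called as well. The Dusp1 call did not hold in the 6 arrays alone (adjusted p = 0.116) or when any array was left out but replicate 3 of Ly49E-CD8aa+ and replicate 2 of Ly49E+CD8aa+ (adjusted p from 0.0544 to 0.139). The Dusp5 call did not hold in the 6 arrays alone (adjusted p = 0.0892) or when any array was left out but replicate 3 of Ly49E+CD8aa- and replicates 2 and 3 of Ly49E+CD8aa+ (adjusted p from 0.0519 to 0.109). The count of 4 was 2 without Ly49E+CD8aa+ replicate 1, Ly49E+CD8aa- replicate 1 or Ly49E-CD8aa+ replicates 1 or 2, and 2 were lower without Ly49E+CD8aa+ replicate 1. Ptpn5, the striatal-enriched phosphatase known from neurons, went the other way, 8.39, 8.16 and 8.23 against 9.79, 9.66 and 9.71, a difference of -1.46 (SE 0.0882, adjusted p = 2.71e-05), and read 9.52 on average in Ly49E+CD8aa+.

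**Figure D4:**
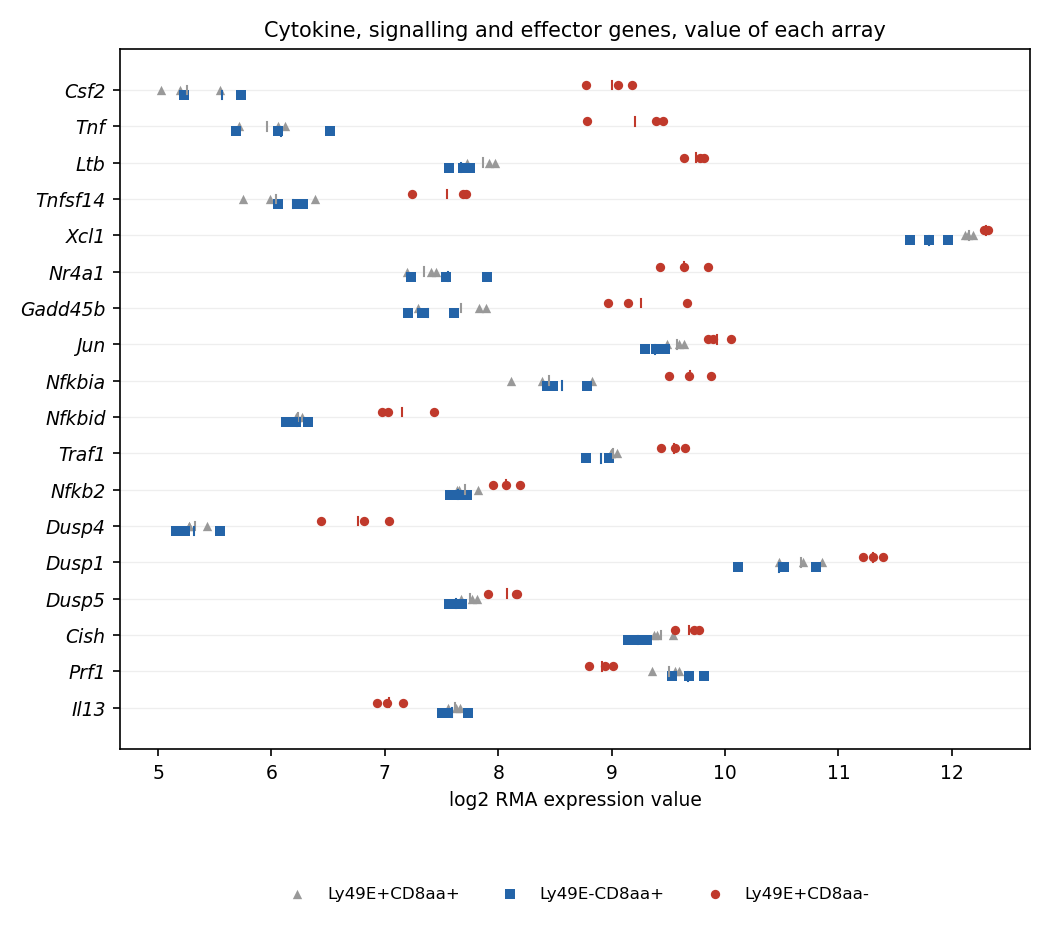
Log2 value of every array (horizontal axis) for 18 of the called cytokine, immediate early, NF-kB, phosphatase and effector genes (Ptpn5 and Ptpn7 are not drawn), with red circles for Ly49E+CD8aa-, blue squares for Ly49E-CD8aa+, grey triangles for Ly49E+CD8aa+ and short bars for means of 3 arrays. Red lies to the right of blue in each of the 18 except Prf1 and Il13, at the bottom, where it lies to the left.

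Small calcium-binding and lipid-sensing proteins were higher in several members. Of 15 S100, annexin and galectin genes 6 were higher and 0 lower by limma (40%). S100a4 read 9.07, 8.92 and 9.03 against 5.06, 5.19 and 4.97, a difference of 3.93 (SE 0.192, adjusted p = 6.16e-06), S100a6 10.15, 10.30 and 9.84 against 8.25, 8.51 and 7.73, a difference of 1.93 (SE 0.216, adjusted p = 0.00146), and Lgals1, which encodes galectin 1, 10.30, 9.91 and 10.17 against 8.94, 7.91 and 8.41, a difference of 1.71 (SE 0.291, adjusted p = 0.017). In Ly49E+CD8aa+ Lgals1 had a mean of 6.33, under both other populations. The Lgals1 call did not hold when any of replicates 1 and 3 of Ly49E+CD8aa- and replicates 2 and 3 of Ly49E-CD8aa+ was left out (adjusted p from 0.0583 to 0.075). Anxa2, Anxa5 and Anxa6 were higher by 0.61, 0.51 and 0.75, and another row of Anxa6 on the array read 0.14. Of 29 lipid and metabolite receptors 5 were higher and 1 lower (20.7%), with a median of -0.01. Ltb4r1, a leukotriene B4 receptor, read 8.64, 7.72 and 9.19 against 6.27, 5.80 and 6.25, a difference of 2.41 (SE 0.31, adjusted p = 0.00339), Gpr132 8.56, 8.51 and 8.53 against 6.40, 6.62 and 5.85, a difference of 2.25 (SE 0.197, adjusted p = 0.000301), and Rara, the retinoic acid receptor alpha, 8.75, 8.69 and 8.84 against 7.70, 7.38 and 7.63, a difference of 1.19 (SE 0.105, adjusted p = 0.000313). Entpd1, the ectonucleotidase CD39, was lower at -0.56 (SE 0.087, adjusted p = 0.0102). The Entpd1 call did not hold in the 6 arrays alone (adjusted p = 0.0521). Without replicate 3 of Ly49E+CD8aa+ 2 of these receptors were lower.

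Lists of 8 to 23 genes with 0 calls by limma are given for completeness, since at the 2.15% called over all genes few or no calls arise in lists of this size. They were 23 cell cycle genes (median 0.088), 13 glycolysis genes (0.212), 18 genes of oxidative phosphorylation (0.009), 22 interferon-stimulated genes (0.189), 8 Gimap genes (-0.014), 12 genes of MHC class II presentation (-0.037) and 16 secretory epithelial markers (0.015). Over all 19938 genes 2081 had an unadjusted p under 0.05. Single arrays changed this for 1 interferon-stimulated gene higher without Ly49E+CD8aa- replicate 3 and 2 class II genes lower without Ly49E-CD8aa+ replicate 2. Ccl5, Gzma, Gzmb, Itgae and Ptprc stood well above the array medians in all 6 arrays, as the label of intraepithelial lymphocyte has it. Most of the enterocyte markers had means above the array medians in both compared populations as well. These were Apoa1 (11.20 in Ly49E+CD8aa- and 11.13 in Ly49E-CD8aa+), Fabp2, Fabp1, Alpi, Vil1, Epcam, Krt8 and Krt20, while Sis was under them. The summed linear level of 9 enterocyte markers was 4094 to 7197 in Ly49E+CD8aa-, 3770 to 7306 in Ly49E-CD8aa+ and 4770 to 6774 in Ly49E+CD8aa+, with Fabp2 at 10.21 and 10.07 on average in the compared populations and 0 of the 9 called.

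The largest lower differences included members of the macrophage and the plasmacytoid dendritic cell lists, whose counts are given with their markers. Cybb, the oxidase subunit of phagocytes, read 3.81, 4.09 and 4.15 in Ly49E+CD8aa- against 6.97, 6.09 and 6.16 in Ly49E-CD8aa+, a difference of -2.39 (SE 0.207, adjusted p = 0.000282). Cd180, which regulates Toll-like receptor signals in B cells and myeloid cells, read 5.01, 5.21 and 5.12 against 7.62, 7.13 and 7.07, a difference of -2.16 (SE 0.135, adjusted p = 3.35e-05), and Mpeg1, a perforin-like protein, 5.24, 5.33 and 5.70 against 7.55, 7.57 and 7.0, a difference of -1.95 (SE 0.197, adjusted p = 0.000739). In Ly49E+CD8aa+ the means were 3.93, 5.06 and 5.63, near the level of Ly49E+CD8aa-. Siglech, a lectin of plasmacytoid dendritic cells, read 5.69, 5.68 and 5.57 against 7.84, 7.26 and 7.43, a difference of -1.87 (SE 0.131, adjusted p = 7.28e-05), Ly6d 5.62, 5.52 and 5.51 against 7.16, 6.76 and 7.06, a difference of -1.45 (SE 0.107, adjusted p = 9.84e-05), and Spib, a transcription factor of those cells, 4.91, 5.10 and 4.93 against 6.74, 6.02 and 6.37, a difference of -1.40 (SE 0.178, adjusted p = 0.0033). Ly49E-CD8aa+ replicate 1 was the highest array for Cybb, Cd180, Siglech, Ly6d and Spib.

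Cd209d (-1.97, SE 0.197, adjusted p = 0.000691) and Pld4, an exonuclease (-1.86, SE 0.254, adjusted p = 0.00493), both of the plasmacytoid list, were lower. Among the largest lower genes that stand in no marker list were Alox5ap, the activator of leukotriene synthesis (-1.77, SE 0.273, adjusted p = 0.00972), and Kmo, an enzyme of the kynurenine pathway (-1.61, SE 0.181, adjusted p = 0.00151). Rnase6 (-1.93, SE 0.352, adjusted p = 0.0233) and Ctsl, the protease cathepsin L (-1.59, SE 0.26, adjusted p = 0.0137), which are in no list either, were lower too. The Alox5ap call did not hold in the 6 arrays alone (adjusted p = 0.0634). The Rnase6 call did not hold in the 6 arrays alone (adjusted p = 0.12) or when any of replicates 1, 2 and 3 of Ly49E+CD8aa-, replicate 3 of Ly49E-CD8aa+ and replicate 1 of Ly49E+CD8aa+ was left out (adjusted p from 0.0512 to 0.0991). The Ctsl call did not hold in the 6 arrays alone (adjusted p = 0.0655) or when any of replicate 3 of Ly49E+CD8aa- and replicate 2 of Ly49E-CD8aa+ was left out (adjusted p from 0.0547 to 0.0594). For Cybb, Cd209d, Pld4 and Kmo the Ly49E+CD8aa- arrays were all under the 25th percentile. Rnase6 read 6.07, 5.51 and 5.93 against 8.69, 7.10 and 7.52, with Ly49E-CD8aa+ replicate 1 above the rest. The same array was also the highest for Cd209d, Pld4, Alox5ap, Kmo and Ctsl, whereas for Mpeg1 it was replicate 2 of Ly49E-CD8aa+.

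Not all markers of these cell types took part. Of 14 plasmacytoid dendritic cell genes 7 were lower and 1, Ccr9, higher, with a median of -0.754, and of 12 conventional dendritic cell genes 2, Clec9a (-0.73) and Cd209a (-1.10), were lower and 1, Batf3 (0.83), higher. Of the 26 together 42.3% were called, against 2.15% over all genes. The 9 lower calls ran from 7 to 10 with each array left out. Over all alternatives, the minimum difference not counted, they ran from 3 to 10. The Clec9a call did not hold in the 6 arrays alone (adjusted p = 0.0623) or when any of replicates 1 and 3 of Ly49E+CD8aa- was left out (adjusted p from 0.0625 to 0.0627). The Batf3 call did not hold in the 6 arrays alone (adjusted p = 0.158) or when any array was left out but replicate 3 of Ly49E+CD8aa- (adjusted p from 0.0524 to 0.161). The summed linear level of 9 defining plasmacytoid markers was 1249 to 1462 in Ly49E+CD8aa-, 1668 to 2737 in Ly49E-CD8aa+ and 1254 to 1304 in Ly49E+CD8aa+. For 14 macrophage and monocyte markers it was 468 to 492, 693 to 958 and 570 to 574 in the same order, with 2 of 14 lower (Cybb and Mpeg1). In the longer macrophage and monocyte list 3 of 21 measured genes were lower (14.3%), Cybb, Cd180 and Mpeg1, and 0 higher. Cd68 (-0.92), Csf1r (-0.14), Adgre1 (0.02), Lyz2 (0.19), C1qa (-0.05) and Mrc1 (-0.11) were not called, and Adgre1 and Cd163 were under the 25th percentile on all 9 arrays. So were the conventional dendritic markers Xcr1, Clec9a and Clec10a. Bst2 (-0.39), Tcf4 (-0.35) and Irf8 (-0.45) were not called, and Flt3 read -0.53 (adjusted p = 0.201). Of 7 B and plasma cell markers 1 was lower, Blnk (-0.60, SE 0.0834, adjusted p = 0.00558), and 1 higher, Sdc1 (0.56, SE 0.0858, adjusted p = 0.00969), with 2 lower of the 14 listed without replicate 2 of Ly49E-CD8aa+. Ms4a1, Cd79a and Jchain were under the 25th percentile throughout. Cd79b was well above the array medians, with means of 9.62 in Ly49E+CD8aa-, 9.82 in Ly49E-CD8aa+ and 9.71 in Ly49E+CD8aa+. It was not called (-0.20, adjusted p = 0.727). The part of such cells in the lower genes was not tested.

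**Figure D5:**
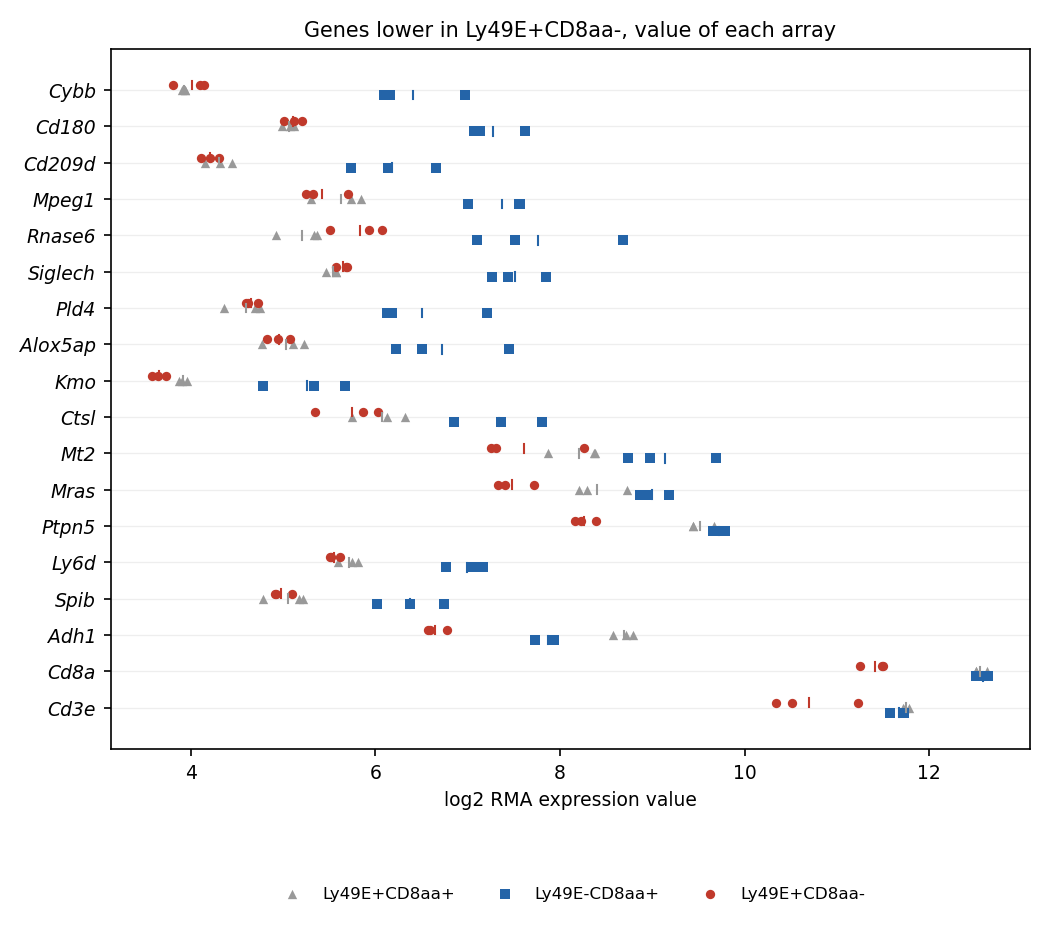
Log2 value of every array (horizontal axis) for 18 genes lower in Ly49E+CD8aa-, with red circles for Ly49E+CD8aa-, blue squares for Ly49E-CD8aa+, grey triangles for Ly49E+CD8aa+ and short bars for means of 3 arrays. For Cybb, Cd180, Siglech and Pld4 the grey triangles lie with the red circles, and for Ptpn5, Cd8a and Cd3e with or near the blue squares.

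Other lower genes had Ly49E+CD8aa+ levels above those of Ly49E+CD8aa-. Mras, a Ras-related GTPase, read 7.41, 7.72 and 7.33 in Ly49E+CD8aa- against 8.86, 9.18 and 8.96 in Ly49E-CD8aa+, a difference of -1.52 (SE 0.156, adjusted p = 0.00082), with a mean of 8.41 in Ly49E+CD8aa+. Another row of Mras on the array read a difference of -0.94. Adh1, an alcohol dehydrogenase that oxidises retinol, read 6.59, 6.78 and 6.57 against 7.73, 7.93 and 7.94, a difference of -1.22 (SE 0.0924, adjusted p = 0.000115), and was higher still in Ly49E+CD8aa+, at 8.69. Of 14 genes of retinoid metabolism and aryl hydrocarbon receptor targets it was the 1 called (7.14%, near the 2.15% over all genes). Without replicate 1 of Ly49E-CD8aa+ 1 other was higher. Mt2, a zinc-binding metallothionein, read 8.26, 7.31 and 7.25 against 8.97, 8.74 and 9.70, a difference of -1.53 (SE 0.314, adjusted p = 0.043), with Ly49E+CD8aa- replicate 1 above the others of its group, and a mean of 8.21 in Ly49E+CD8aa+. The Mt2 call did not hold in the 6 arrays alone (adjusted p = 0.158) or when any array was left out but replicate 1 of Ly49E+CD8aa- (adjusted p from 0.0602 to 0.166). Pdzk1, a scaffold of the enterocyte brush border, was the 1 called enterocyte marker (-0.82, SE 0.164, adjusted p = 0.0364), in contrast to 20 others. That is 4.76% of the list, near the 2.15% over all genes. The Pdzk1 call did not hold in the 6 arrays alone (adjusted p = 0.121) or when any array was left out but replicate 1 of Ly49E+CD8aa- (adjusted p from 0.0524 to 0.123). Bcl2, the survival factor, was lower by a small amount (-0.34, SE 0.0668, adjusted p = 0.0346). The other 11 measured genes of its family were not called, so 8.33% of that list was called. The Bcl2 call did not hold in the 6 arrays alone (adjusted p = 0.0904) or when any array was left out but replicate 3 of Ly49E+CD8aa- (adjusted p from 0.0544 to 0.134).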

How the data were processed

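Total RNA of sorted cells was hybridised to single-channel Affymetrix Mouse Gene 1.0 ST arrays after whole-transcript amplification, per the labels. The deposited values are log2 expression values that the authors made with RMA, per the submitters' processing notes. Version, annotation and genome build of that step: not given in the sources used here. That the values are on a log2 scale follows from their range, and they were used unchanged.

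Of 35556 rows, 21789 carried 1 gene symbol in the platform annotation (21698 matched to a current record), 1621 carried several and 12146 were unlisted. The brightest row stood for a gene with several rows, which left 19938 genes. limma 3.58.1 in R 4.3.3 fitted a mean per population to all 9 arrays, with no block and no filter on dim genes (6 residual and 3.08 prior degrees of freedom). The fit was also run on simulated data made of independent normal values. That run checks the code and does not bear on the calls. Precision is limited by 3 arrays per population, and the median SE was 0.0976.

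The members, lists and tests were chosen with earlier results of these data known. Named genes were fixed markers and factors, the 12 called genes that differed most in each direction (without predicted genes and segments of antigen receptor loci), and up to 6 called members per list. Other genes were named to fill out a list or were chosen after their values were seen. Lists were described by counts and medians and not tested. A gene named as not analysed here had no row with 1 symbol.

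Labels share replicate numbers 1 to 3. The correlations of same-numbered arrays' deviations from their population means, across genes, were 0.127, 0.0236 and -0.0627, so the numbers were not taken as pairs.

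Alternatives were the 6 arrays alone, each array left out, the replicate block, filters on dim genes, quantile normalization again, centring on medians, an intensity trend, robust moderation, array weights, the mean of a gene's rows and a minimum difference of 1.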

Additional observations from a re-analysis of the deposited data

How the results depend on the processing

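The count of 269 higher genes ran from 186 to 250 and that of 160 lower genes from 82 to 130 when each of the 9 arrays was left out. With the 6 arrays alone 78 genes were lower, and with a minimum difference of 1, 154 were higher and 35 lower, settings that by construction use fewer arrays or a stricter rule. In the alternatives not named here the counts stayed within 1.5 times. Centring on array medians gave 286 higher and 132 lower genes and moved the median difference of all genes from -0.0243 to 0.00443. The replicate block gave 260 higher and 157 lower genes, of which 236 and 124 were among the calls without it, and 8 of the 111 calls of genes named by the rule were lost with it (Gata3, Itgae, Ly9, Itga4, Lef1, Nfkb2, Bcl2 and Alas2). The arrays share only a number, and not every array correlated best with its own number. Of the 111 calls 77 passed in each of the 17 to 19 alternatives run per gene, the minimum difference not counted, and 27 were lost in the 6 arrays alone. No named difference changed sign in these alternatives. A low array signal limits what can be said of dim genes, and 3 arrays per population limit small differences.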

Other observations

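Genes outside the lists above, chosen after their values were seen, add to the description. Upp1, which cleaves uridine, read 10.13, 9.72 and 10.11 in Ly49E+CD8aa- against 6.27, 5.74 and 6.27 in Ly49E-CD8aa+, a difference of 3.90 (SE 0.171, adjusted p = 3.46e-06) by limma. Nr1d1, a repressor of the circadian clock, read 9.66, 8.87 and 9.66 against 6.12, 5.92 and 5.95, a difference of 3.40 (SE 0.205, adjusted p = 2.67e-05), and the clock gene Per3 was lower at -0.46 (SE 0.0851, adjusted p = 0.0247). The Per3 call did not hold in the 6 arrays alone (adjusted p = 0.0571) or when any of replicates 1 and 3 of Ly49E+CD8aa- and replicates 1, 2 and 3 of Ly49E-CD8aa+ was left out (adjusted p from 0.0521 to 0.0989). Epas1, a hypoxia-inducible factor, was higher by 2.10 (SE 0.139, adjusted p = 4.99e-05), and Mgll, which breaks down monoacylglycerols, by 1.98 (SE 0.0908, adjusted p = 4.29e-06). Serpinb1a, an inhibitor of neutrophil proteases, read 9.05, 8.73 and 8.62 against 6.21, 5.10 and 5.13, a difference of 3.32 (SE 0.335, adjusted p = 0.000732), with Ly49E-CD8aa+ replicate 1 above the other 2. Ctla2a, a cathepsin inhibitor, was higher by 3.17 (SE 0.138, adjusted p = 3.46e-06), and its near relative Ctla2b by 1.38 (SE 0.214, adjusted p = 0.0103). The Ctla2b call did not hold when any of replicate 3 of Ly49E+CD8aa- and replicate 1 of Ly49E-CD8aa+ was left out (adjusted p from 0.0512 to 0.0539). The membrane proteins Ms4a4b (3.94, SE 0.145, adjusted p = 1.13e-06) and Ms4a6b (0.84, SE 0.0877, adjusted p = 0.000893) were both higher. Smad3, which carries TGF-beta signals, and Tgif1, which represses them, were both higher, by 1.12 (SE 0.154, adjusted p = 0.00515) and 1.40 (SE 0.201, adjusted p = 0.00652).

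On the lower side, the secreted proteases and factors Htra1 (-1.33, SE 0.13, adjusted p = 0.000602), Il34, a ligand of the CSF1 receptor (-1.17, SE 0.09, adjusted p = 0.00013), and Tgfb3 (-0.87, SE 0.143, adjusted p = 0.0139) were lower in Ly49E+CD8aa-. The Tgfb3 call did not hold in the 6 arrays alone (adjusted p = 0.0844) or when any of replicates 2 and 3 of Ly49E+CD8aa- and replicates 2 and 3 of Ly49E-CD8aa+ was left out (adjusted p from 0.0515 to 0.0657). Glp1r, the receptor of the incretin GLP-1, read 9.33, 9.36 and 9.25 in Ly49E+CD8aa- against 10.36, 10.27 and 10.34 in Ly49E-CD8aa+, a difference of -1.01 (SE 0.0618, adjusted p = 2.95e-05), with a mean of 10.37 in Ly49E+CD8aa+. Gpx8, of the glutathione peroxidase family, was lower at -1.43 (SE 0.128, adjusted p = 0.000334), and its Ly49E+CD8aa+ mean was 10.48. The Ras exchange factors Rasgrf1 and Rasgrf2 had differences of -0.92 (SE 0.0959, adjusted p = 0.000893) and -1.04 (SE 0.169, adjusted p = 0.0136), and the kinase subunits Pik3cb and Pik3cd of -0.83 (SE 0.096, adjusted p = 0.00173) and -0.50 (SE 0.0911, adjusted p = 0.0241). The Rasgrf2 call did not hold in the 6 arrays alone (adjusted p = 0.0569) or when any of replicates 2 and 3 of Ly49E+CD8aa- and replicates 2 and 3 of Ly49E-CD8aa+ was left out (adjusted p from 0.0504 to 0.0607). The Pik3cd call did not hold in the 6 arrays alone (adjusted p = 0.0636) or when any of replicates 1, 2 and 3 of Ly49E+CD8aa- and replicates 1 and 2 of Ly49E-CD8aa+ was left out (adjusted p from 0.0566 to 0.093). Kynu, which acts after Kmo in the kynurenine pathway, was lower at -0.73 (SE 0.0989, adjusted p = 0.00446), and Mt1 beside Mt2 at -0.89 (SE 0.103, adjusted p = 0.00176). Bcl11a and Mef2c, transcription factors with a part in B cells and dendritic cells, had differences of -0.74 (SE 0.137, adjusted p = 0.0263) and -0.58 (SE 0.101, adjusted p = 0.019), with Ly49E+CD8aa+ means of 5.72 and 4.64, near those of Ly49E+CD8aa-. The Bcl11a call did not hold in the 6 arrays alone (adjusted p = 0.112) or when any array was left out but replicate 3 of Ly49E-CD8aa+ and replicates 1 and 3 of Ly49E+CD8aa+ (adjusted p from 0.0523 to 0.101). The Mef2c call did not hold in the 6 arrays alone (adjusted p = 0.0878) or when any of replicates 1 and 3 of Ly49E+CD8aa- and replicate 2 of Ly49E-CD8aa+ was left out (adjusted p from 0.0617 to 0.08).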
